A study of Rattus norvegicus with 15 samples.

Results

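Endothelin and nitric oxide are opposing signals of the vessel wall, and the genes that make them were followed in rejected and non-rejected rat kidney grafts. Endothelin-1, encoded by Edn1, is cut from a larger precursor by endothelin-converting enzyme 1 (Ece1) and constricts vessels through receptors on smooth muscle. In the kidney it also acts on the collecting duct, where it promotes sodium excretion. Nitric oxide is made from arginine by the synthases Nos1 (neuronal, in the kidney best known from the macula densa) and Nos3 (endothelial). It relaxes smooth muscle through soluble guanylyl cyclase and cyclic GMP, and both synthases need tetrahydrobiopterin as a cofactor. A probe set was taken when its single gene symbol was Edn1, Edn3, Ednra, Ednrb, Ece1, Nos1 or Nos3. This gave 4 probe sets, 1 each for Edn1 (1369519_at), Ece1 (1367801_at), Nos1 (1369015_at) and Nos3 (1371166_at), of 31042 tested in all. For 3 of the 7 genes, Edn3 and the receptors Ednra and Ednrb, no probe set was listed under the symbol alone, so they were not analysed here.

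The allogeneic group (aTX) held 5 kidneys of Lewis-Brown-Norway (LBN) rats placed in Lewis (LEW) rats, the syngeneic group (sTX) 5 LBN kidneys placed in LBN rats, and the control group (ctr) 5 native LBN kidneys. All rats were male and, by the labels, 10 to 12 weeks old. Recipients had both own kidneys removed just before surgery and grafts were taken on day 4, so each graft was the recipient's only kidney while a control came from a rat with no transplant. The control kidneys were described as the second kidneys of donors, and which control shares a donor with which graft was not stated in the labels or methods. The source names of the grafts give other donor and recipient strains than the study's methods, which were followed. A protocol field of sTX 4 and sTX 5 calls them allogeneic, against their titles. They were kept as sTX, and leaving both out changed none of the calls of the 4 genes. Outside these 4, calls lost without them included those of Gch1 and Asl in sTX against ctr, given below. RNA came from whole kidney, in which fewer cells of a type and less RNA per cell cannot be told apart.

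Median signals per array were 26.2 to 27.2 in aTX, 28.8 to 30.0 in sTX and 24.3 to 26.8 in ctr. The ratio of 3′ to 5′ signal for Gapdh, a sign of RNA integrity, was 1.01 to 1.07 in aTX, 1.07 to 1.13 in sTX and 1.13 to 1.25 in ctr. That for actin was 1.14 to 1.29 in aTX, 1.45 to 1.61 in sTX and 1.54 to 1.98 in ctr, so aTX arrays lay below all others. The part of RNA integrity in the values below was not tested. The arrays were split into 2 runs by the hybridization time in the instrument record of each, before noon or later. These runs, called fluidics runs below, are a grouping made here from those times. The first held aTX 2, 3 and 4 with all ctr, and the second aTX 1 and 5 with all sTX, so that no sTX array shared a run with a ctr array. With run as a term, sTX and ctr were therefore compared only by way of the aTX arrays. The share of all probe sets passing an adjusted p of 0.05 in sTX against ctr then fell from 17.7% to 3.12%. Whether a single call lost there reflects run or this lower precision cannot be told apart. Markers of proximal tubule, thick limb, collecting duct, podocyte and endothelium were measured in every array with no signal of 0.

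The promoters of Edn1 and Nos3 are shown because endothelial cells make both products, and their probe sets lay on opposite sides of the control level in aTX. Whole-kidney RNA does not show which cells gave either signal. Each sequence runs 5′ to 3′ from 250 to 91 bases before the RefSeq start on GRCr8, Edn1 at chr17:22666778-22666937 (minus strand) and Nos3 at chr4:11706672-11706831 (minus strand), with motif matches in capitals.
Edn1: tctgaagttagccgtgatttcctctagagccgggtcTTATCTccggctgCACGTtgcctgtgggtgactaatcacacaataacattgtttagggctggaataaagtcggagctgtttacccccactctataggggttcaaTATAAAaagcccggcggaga
Nos3: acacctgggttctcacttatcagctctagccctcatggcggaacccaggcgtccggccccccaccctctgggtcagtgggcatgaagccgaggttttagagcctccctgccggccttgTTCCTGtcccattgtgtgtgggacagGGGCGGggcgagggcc
Of the motifs searched on both strands over 250 bases, the Edn1 promoter held the TATA box TATAAA, which stands in 12.9% of 33469 rat promoters of that length. It also held the GATA motif as AGATAA, present in 10.3% of them, and the core of hypoxia response elements as ACGTG, present in 16.6%. The Nos3 promoter held the Sp1 motif GGGCGG, found in 30.5% of promoters, and the ETS core CAGGAA, found in 24.7%. The matches did not overlap each other in either promoter. Neither promoter held the CCAAT box (34.0% of promoters), the AP-1 motif TGANTCA (6.34%) or the STAT motif TTCNNNGAA (7.67%). GC content over the 250 bases was 56.4% for Edn1 and 62.4% for Nos3, beside a median of 51.2% over all promoters. These letters describe the sequence and show no binding.

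Edn1 was somewhat higher in aTX than in ctr, at the edge of the threshold. Its signals were 27.1, 37.9, 39.0, 49.4 and 41.1 in aTX, 34.5, 33.1, 32.1, 29.0 and 23.3 in sTX, and 34.1, 24.5, 25.4, 32.4 and 24.9 in ctr. In 4 of 5 aTX kidneys the signal was above that of every sTX and ctr kidney, while aTX 1 lay inside the ctr range, so the groups overlapped. Means were 38.9 ± 7.99 in aTX, 30.4 ± 4.45 in sTX and 28.3 ± 4.61 in ctr (SD, n = 5 each). The Edn1 signals stood at percentiles 45.3 to 59.9 of all probe sets on their arrays and were not shown to be above background. In limma's fit of all arrays Edn1 was 1.37-fold higher in aTX than in ctr (95% interval 1.05 to 1.77, log2 0.45 ± 0.18 SE, adjusted p = 0.0489). This call depended on single kidneys and on scaling. With each of the 15 arrays left out in turn it held in 4 of the fits (adjusted p 0.0115 to 0.141), those without aTX 1, sTX 5, ctr 1 or ctr 4. It was not made with arrays centred on their medians (log2 0.37, adjusted p = 0.103) or quantile-normalized (log2 0.34, adjusted p = 0.157). With fluidics run as a term it was (log2 0.58, adjusted p = 0.0292), as it was within the first run alone (adjusted p = 0.0355). Against sTX the difference of aTX was log2 0.34 (adjusted p = 0.151). It passed the threshold only when aTX 1 was left out (log2 0.47, adjusted p = 0.0435).

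Ece1, the enzyme that releases the active peptide, was slightly higher in aTX. Its signals were 204.2, 209.9, 190.9, 215.4 and 222.8 in aTX, 214.9, 162.6, 193.2, 188.0 and 184.9 in sTX, and 179.4, 176.6, 186.8, 166.2 and 187.1 in ctr. Every aTX kidney lay above every ctr kidney, while sTX spanned both groups. Ece1 was 1.16-fold higher in aTX than in ctr (95% interval 1.04 to 1.30, adjusted p = 0.0223). The call was lost with fluidics run as a term (log2 0.20 in place of 0.22, adjusted p = 0.0875), within the first run (adjusted p = 0.0829), after median centring (log2 0.14, adjusted p = 0.137), after quantile normalization (adjusted p = 0.0597), and without aTX 5 (adjusted p = 0.0599) or ctr 4 (adjusted p = 0.0595). Against sTX the change was log2 0.15 (adjusted p = 0.135), and it was called after median centring (log2 0.27, adjusted p = 0.00778) and without sTX 1 (log2 0.20, adjusted p = 0.0467).

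Nos3 ran the other way without passing the test. Its signals were 17.2, 11.8, 12.3, 21.1 and 18.6 in aTX, 20.9, 17.9, 16.9, 30.4 and 19.2 in sTX, and 26.3, 19.5, 19.7, 25.0 and 22.4 in ctr. Only aTX 4 exceeded the lowest ctr kidney. These signals stood at percentiles 37.0 to 51.0 of all probe sets on their arrays and were not shown to be above background. The fitted level in aTX was 0.704 of that in ctr (95% interval 0.505 to 0.982, log2 -0.51 ± 0.23 SE, adjusted p = 0.0867). It reached the threshold after median centring (log2 -0.58, adjusted p = 0.0463), without aTX 4 (log2 -0.61, adjusted p = 0.0495), and at its edge with no intensity trend in the fit (adjusted p = 0.05). The value against sTX was log2 -0.38 (adjusted p = 0.219). Endothelial markers moved with this value. Of 13 measured endothelial genes 11 were lower in aTX than in ctr, 1 (Ehd3) was higher and 1 was not called, and their summed level was 1697 to 1843 in aTX, 3029 to 3523 in sTX and 3398 to 4113 in ctr. Of 9 markers of the collecting duct, where endothelin-1 also acts, 8 were lower and 0 higher in aTX than in ctr. Their summed level was 2809 to 3130 in aTX, 5748 to 6793 in sTX and 5096 to 6143 in ctr. The part of either marker group in the Nos3 and Edn1 values was not tested.

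Nos1 gave no difference that the arrays could resolve. Its signals were 14.9, 14.5, 14.3, 13.1 and 9.9 in aTX, 10.6, 13.7, 9.6, 18.5 and 12.6 in sTX, and 12.4, 8.5, 8.4, 16.9 and 16.9 in ctr. All groups overlapped, and the ctr kidneys alone spread over a coefficient of variation of 33.5%. These signals stood at percentiles 29.0 to 43.1 of all probe sets, below the median of every array. They were not shown to be above background, so a change in Nos1 could have been missed. The change in aTX against ctr was 1.10-fold with an interval of 0.716 to 1.68 (adjusted p = 0.766). Of 7 markers of the thick limb and macula densa, 6 were lower in aTX than in ctr. The exception was Ptgs2, known from the macula densa, which was not called there (log2 0.32, adjusted p = 0.142), was higher in aTX than in sTX (log2 1.64, adjusted p = 1.23e-07) and lower in sTX than in ctr (log2 -1.33, adjusted p = 9.69e-06). The summed level of the 7 was 3422 to 5281 in aTX, 7788 to 10618 in sTX and 8917 to 10197 in ctr. Their part in the Nos1 values was not tested.

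**Figure D1:**
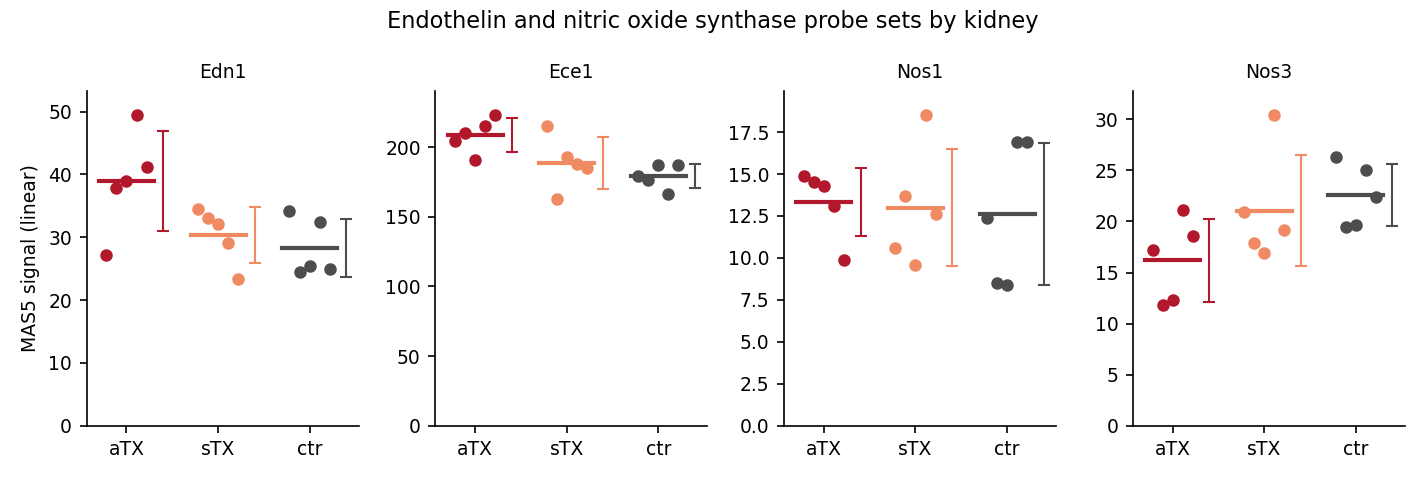
MAS5 signal on a linear axis from 0 for Edn1, Ece1, Nos1 and Nos3. Each point is a kidney, the line is the mean of the 5 kidneys and the bar beside it is 1 SD. Edn1 and Ece1 sit higher in aTX and Nos3 lower, and only for Ece1 do aTX and ctr not overlap.

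In all, 2 of the 4 probe sets were called higher and 0 lower in aTX against ctr, in a comparison where 42.4% of all probe sets were called (20.2% higher, 22.2% lower) and the groups of 33.2% did not overlap. Without aTX 5, none of the 4 was called. In sTX against ctr limma called 0 of 4, with adjusted p from 0.600 (Ece1) to 0.909 (Nos1), where 17.7% of all probe sets were called. In aTX against sTX it called 0 of 4, where 36.0% were. Without adjustment, 3, 0 and 0 of the 4 had p below 0.05 in these comparisons, by limma and by the methods' t-test alike. The comparisons share arrays, so their values are not independent. The sTX intervals still allowed changes of 0.831 to 1.39-fold for Edn1, 0.942 to 1.17-fold for Ece1, 0.687 to 1.61-fold for Nos1 and 0.658 to 1.28-fold for Nos3.

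**Figure D2:**
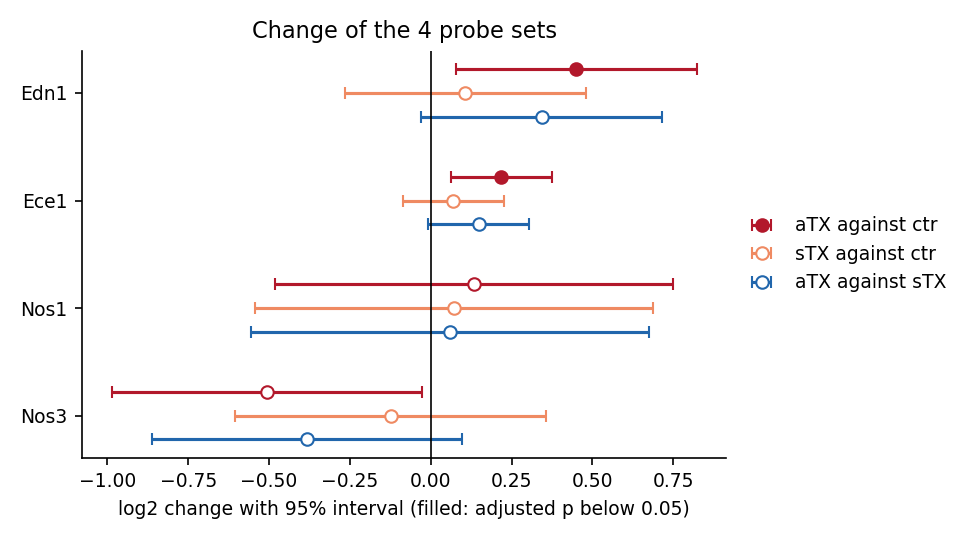
Log2 change of each of the 4 probe sets with its 95% interval from limma, for aTX against ctr, sTX against ctr and aTX against sTX. Filled points passed an adjusted p of 0.05, and these were Edn1 (0.45) and Ece1 (0.22) in aTX against ctr.

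Within an array, the log2 signal of Edn1 minus that of Nos3 was 1.28 ± 0.42 in aTX (0.66 to 1.68), 0.55 ± 0.43 in sTX (-0.07 to 0.93) and 0.32 ± 0.10 in ctr (0.15 to 0.37; SD, n = 5 each). This pairing was made after the values were seen and carries no test. The size of a single difference depends on the probes, so only its spread over kidneys can be read. Every aTX kidney lay above every ctr kidney, but aTX and sTX overlapped. The pair was chosen with its opposite sides of ctr known, so the separation from ctr is no result beyond the single values. Over the 15 arrays, the genes whose log2 signals followed Edn1 most closely were Btaf1 (Pearson r = 0.846), Nploc4 (0.846) and Tab2 (0.832), out of 10613 candidate probe sets whose mean signal reached 50. Those for Ece1 were Kif2a (0.914), Mphosph6 (0.861) and Commd4 (0.858). For Nos3 they were Fnip2 (0.834), Sharpin (0.828) and Cpne7 (0.823), and for Nos1 they were Ctsb (0.798), Lyrm1 (0.757) and Csnk1g3 (0.725). With group means removed, the coefficients of these 12 genes were 0.703 to 0.865. They are the highest of many and share the arrays' scaling.

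Of 66 further genes of endothelin and nitric oxide signalling, 55 were measured. In aTX against ctr 15 of them were higher and 22 lower (67.3% called). Of all 14217 named genes 58.2% were called there, 29.5% higher and 29.4% lower. In sTX against ctr 10 were higher and 7 lower (30.9%, against 27.5% of all genes, 17.9% higher and 9.69% lower). In aTX against sTX 9 were higher and 23 lower (58.2%, against 50.7% of all genes, 21.0% higher and 30.0% lower). The shares called in either direction lay near those of all genes. By direction, more of the listed genes fell than rose in aTX against ctr, where rises and falls were about equal over all genes. Against sTX falls outnumbered rises in both. These directions were not tested. The direction of sTX calls depended on scaling. The deposited scaling gave 3539 rises and 1961 falls across the array in sTX relative to ctr (11.4% and 6.32% of probe sets), median centring gave 1812 and 4724, and quantile normalization 2807 and 2388.

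Of 7 further genes of endothelin processing, 1 rose and 1 fell in aTX against ctr, with a median log2 change of -0.05 beside -0.07 over all probe sets. Mme, the membrane peptidase neprilysin that degrades endothelin and other peptides, had a mean of 396 ± 41.7 in aTX, 1125 ± 88.4 in sTX and 1086 ± 95.3 in ctr. It was 2.74-fold lower in aTX than in ctr (adjusted p = 1.42e-11) and 2.84-fold lower than in sTX (adjusted p = 2.37e-11). Mme is abundant in the proximal tubule brush border, and all 6 proximal tubule markers were lower in aTX, with summed levels of 3916 to 4888 in aTX, 8505 to 9709 in sTX and 8989 to 12383 in ctr. Their part in the fall of Mme was not tested. Ece2, named after its values were seen, averaged 18.4 in aTX, 21.1 in sTX and 9.04 in ctr on 1386749_at (log2 1.11 in aTX against ctr, adjusted p = 0.00313), while its other probe set 1378949_at gave log2 -1.04 (adjusted p = 0.0619). On 1386749_at Ece2 was also called higher in sTX than in ctr (log2 1.26, adjusted p = 0.00341). Group means of both Ece2 probe sets lay below the array medians and were not shown to be above background. Edn2, a second endothelin peptide, had mean signals of 1.12 in aTX, 2.08 in sTX and 1.56 in ctr and was not called (adjusted p 0.400 to 0.778).

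Downstream of the endothelin receptors, 4 of 16 measured genes rose and 7 fell in aTX against ctr (median log2 change -0.21). Rhoa, the small GTPase that sustains contraction, averaged 878 ± 31.0 in aTX, 643 ± 32.4 in sTX and 547 ± 36.2 in ctr on 1370130_at, a 1.61-fold rise in aTX against ctr (adjusted p = 1e-08). Ppp1r12a, a targeting subunit of myosin phosphatase, was 1.63-fold higher (adjusted p = 0.000227), and Plcb1, a phospholipase that acts behind Gq-coupled receptors, was 1.63-fold lower (adjusted p = 5.54e-06). Against sTX, the phosphatase inhibitor Ppp1r14a was 1.78-fold lower in aTX (adjusted p = 2.43e-05). Of 10 smooth muscle and mesangial markers, 8 were lower and 1 higher in aTX than in sTX, and their part in the values of this group was not tested. In sTX against ctr 1 gene rose and 2 fell. Rhoa rose there 1.28-fold on 1399027_at (adjusted p = 0.000577), and the calcium channel of internal stores Itpr1 fell by 0.32 on the log2 scale (adjusted p = 0.00209). The rise of Rhoa in sTX was lost after median centring (log2 0.16, adjusted p = 0.105) and, with no smaller change, with fluidics run as a term (log2 0.37 in place of 0.36, adjusted p = 0.0914).

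Among partners of the synthases, 4 of 8 measured genes rose and 2 fell in aTX against ctr (median log2 change 0.18). The chaperone Hsp90ab1, which supports Nos3 activity, was 1.63-fold higher (adjusted p = 5.89e-08), and Akt1, a kinase that activates Nos3, was 1.43-fold higher (adjusted p = 5.71e-05). Cav1, the caveolar protein that holds Nos3 inactive, averaged 139 ± 16.7 in aTX, 318 ± 13.0 in sTX and 223 ± 23.1 in ctr on 1372111_at, with no overlap between any of the groups. Over all probe sets, groups did not overlap for 13.2% in sTX against ctr and 29.1% in aTX against sTX. It was 1.60-fold lower in aTX than in ctr (adjusted p = 9.14e-07) and 2.30-fold lower than in sTX (adjusted p = 6.11e-10), and on 1370131_at it was 1.64-fold higher in sTX than in ctr (adjusted p = 0.00708). Nostrin, a Nos3 trafficking factor, fell by 0.59 on the log2 scale in aTX against sTX (adjusted p = 0.000939). Akt1 was 1.41-fold higher in sTX than in ctr (adjusted p = 0.000398). With fluidics run as a term the call of Cav1 on 1370131_at in sTX against ctr was lost (adjusted p = 0.0578) although its log2 change was larger than the 0.71 without that term. Those of Akt1 in sTX against ctr (log2 0.25, adjusted p = 0.436) and of Nostrin in aTX against sTX (log2 -0.40, adjusted p = 0.0715) were lost with smaller changes. The endothelial markers given above had their lowest summed level in aTX, as Cav1 and Nostrin did. Of them 0 were higher in sTX than in ctr, where Cav1 rose. The smooth muscle and mesangial markers given below had their highest summed level in sTX, as Cav1 and Nostrin did. In aTX against ctr, where Cav1 was lower, 4 of these 10 markers were called higher and 4 lower, and their summed level was higher. The part of either marker group in these values was not tested.

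The inducible synthase Nos2 gave different values on its probe sets. Signals of 1371289_at, assigned to Nos2 alone, were 7.0, 11.8, 17.2, 13.8 and 4.0 in aTX, 16.9, 15.4, 9.1, 21.3 and 33.8 in sTX, and 3.4, 12.4, 11.7, 14.9 and 5.8 in ctr. The groups overlapped and no difference was called (adjusted p 0.137 to 0.810), except that aTX was lower than sTX within the second fluidics run (log2 -1.74, adjusted p = 0.0239) and with run as a term (adjusted p = 0.0273). Both settings gave the same estimate. Of the aTX arrays, the second run held only aTX 1 and 5, with signals of 7.0 and 4.0. Group means of this probe set lay below the array medians and were not shown to be above background. A second probe set, 1387667_at, carries the symbols Nos2 and Nos2-ps1 together and was therefore left out of the gene counts. Its signals were 113.0, 144.5, 138.6, 187.6 and 163.0 in aTX, 1.3, 7.2, 1.9, 0.4 and 1.9 in sTX, and 0.5, 4.2, 7.3, 11.8 and 0.6 in ctr. Every aTX kidney lay far above all the others, and the rise was called against ctr (adjusted p = 3.80e-06) and sTX (adjusted p = 1.81e-06). No fold is given, because the sTX and ctr signals lay far below the array medians and were not shown to be above background. Which of the 2 symbols the signal belongs to cannot be told apart. Leukocyte markers moved with it: 10 of 11 measured were higher in aTX than in ctr, and their summed level was 8083 to 10193 in aTX, 2873 to 4165 in sTX and 1815 to 2326 in ctr. Their part in this signal was not tested.

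Of the genes of tetrahydrobiopterin, 4 of 7 were measured, and in aTX against ctr 1 rose and 3 fell. Gch1, the rate-limiting enzyme of its synthesis, had signals of 222.5, 168.0, 173.7, 169.7 and 183.0 in aTX, 26.1, 18.6, 13.4, 25.1 and 19.9 in sTX, and 14.9, 9.4, 12.6, 17.0 and 6.2 in ctr on 1387221_at. The aTX kidneys stood clear of both other groups, which overlapped each other. Gch1 was 16.1-fold higher in aTX than in ctr (95% interval 11.4 to 22.7, adjusted p = 2.72e-11) and 9.09-fold higher than in sTX (adjusted p = 1.86e-09). All sTX and ctr signals lay below their array medians and were not shown to be above background, so the fold sizes are uncertain. The 1.77-fold rise of Gch1 in sTX against ctr (adjusted p = 0.0197) was lost after median centring (adjusted p = 0.0660), with fluidics run as a term (adjusted p = 0.568) and without sTX 1 (adjusted p = 0.0579) or sTX 4 (adjusted p = 0.0520). It was also lost without sTX 4 and 5 together (adjusted p = 0.097). Gchfr, the feedback regulator that restrains Gch1, averaged 218 ± 21.4 in aTX, 459 ± 45.9 in sTX and 525 ± 20.1 in ctr, a 2.42-fold fall in aTX against ctr (adjusted p = 3.39e-11). Qdpr, which regenerates the cofactor, averaged 952 ± 77.9 in aTX, 1539 ± 85.3 in sTX and 2035 ± 127 in ctr. It was 2.14-fold lower in aTX than in ctr (adjusted p = 9.57e-11) and 1.32-fold lower in sTX than in ctr (adjusted p = 0.000402), a call that was lost with run as a term (adjusted p = 0.321). Pts, which acts after Gch1 in synthesis, was 1.55-fold lower in sTX than in ctr (adjusted p = 6.48e-05). Gch1 and the leukocyte markers given above moved together, and their part in the rise was not tested.

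Of 9 measured genes of arginine supply and of synthase inhibitors, 2 rose and 6 fell in aTX against ctr (median log2 change -0.53). Arg1, which consumes arginine, averaged 185 ± 38.2 in aTX, 30.1 ± 6.32 in sTX and 23.2 ± 5.47 in ctr, and was 8.02-fold higher in aTX than in ctr (adjusted p = 2.50e-11). Slc7a1, a transporter that takes up arginine, averaged 147 ± 10.1 in aTX, 64.4 ± 7.17 in sTX and 49.5 ± 5.71 in ctr, a 2.99-fold rise in aTX against ctr (adjusted p = 1.25e-10). The mitochondrial arginase Arg2 went the other way from Arg1, with 129 ± 24.5 in aTX, 232 ± 42.8 in sTX and 338 ± 57.0 in ctr (2.65-fold lower in aTX than in ctr, adjusted p = 5.76e-08). Ddah1 degrades asymmetric dimethylarginine, an inhibitor of all synthases. Its signals were 814.6, 836.1, 843.5, 1280.7 and 844.5 in aTX, 1750.4, 1759.0, 1878.0, 2014.8 and 2300.5 in sTX, and 2244.2, 2119.5, 1870.0, 2513.8 and 2379.0 in ctr. Every aTX kidney lay below every other kidney, and Ddah1 was 2.44-fold lower in aTX than in ctr (adjusted p = 1.38e-08) and 2.12-fold lower than in sTX (adjusted p = 2.76e-07). In sTX against ctr, Slc7a1 rose 1.30-fold (adjusted p = 0.0139), Arg2 fell by 0.55 on the log2 scale (adjusted p = 0.00951) and Asl, which makes arginine, fell by 0.38 (adjusted p = 0.0348). The first was lost after median centring (adjusted p = 0.256). All 3 were lost with fluidics run as a term (adjusted p 0.639, 0.833 and 0.967), where 3.12% of all probe sets were called. The call of Asl was lost without any of sTX 1, 2, 3 or 5 or ctr 1, 2, 4 or 5 (adjusted p 0.0554 to 0.0893) and after quantile normalization (adjusted p = 0.104). It was also lost without sTX 4 and 5 together (adjusted p = 0.061). The summed levels of the tubule markers given above were lower in aTX than in ctr, and that of the leukocyte markers was higher. The part of these markers in the values of this group was not tested.

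**Figure D3:**
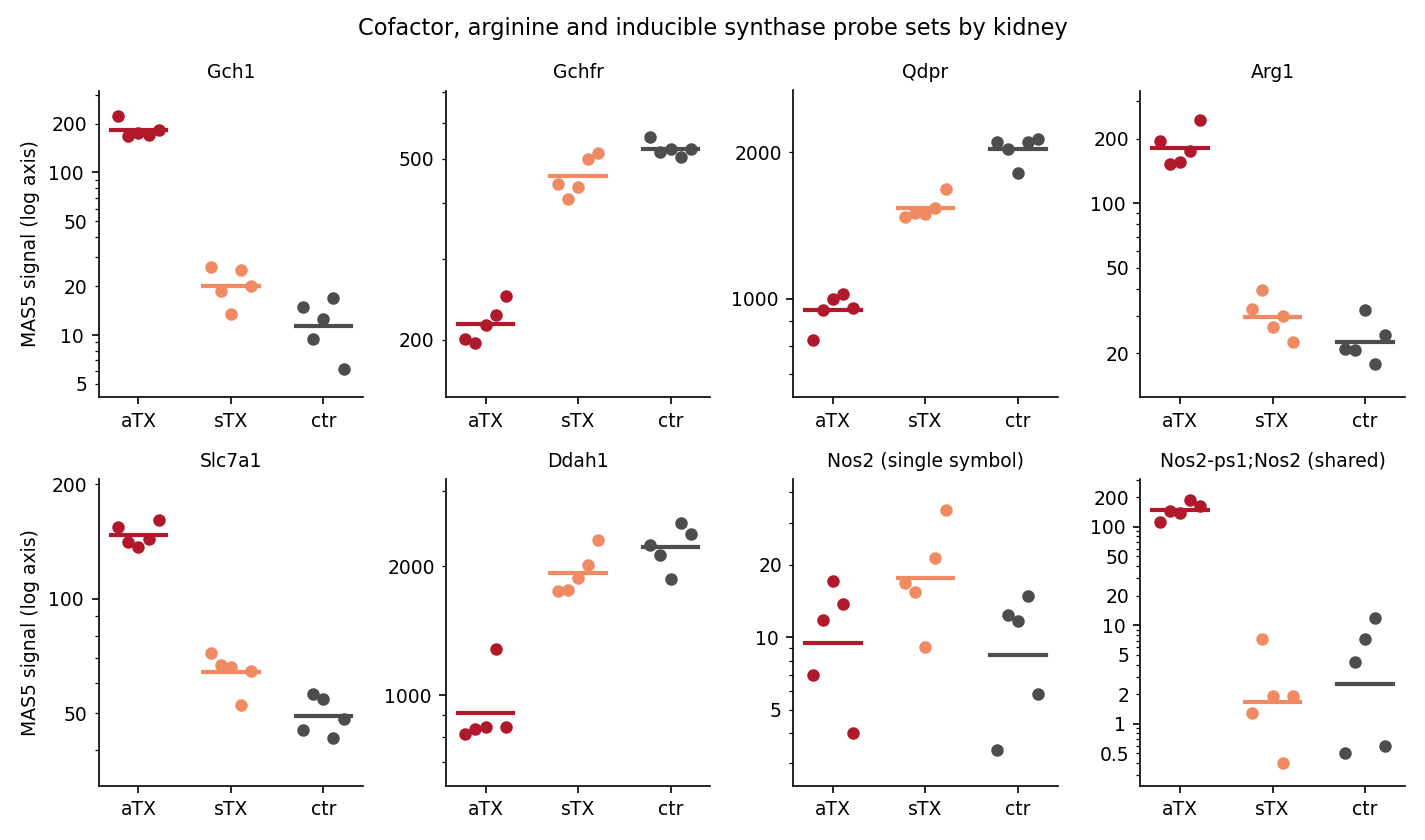
MAS5 signal on log axes for Gch1 (1387221_at), Gchfr, Qdpr, Arg1, Slc7a1, Ddah1 and the 2 Nos2 probe sets. Each point is a kidney and each line the geometric mean of 5. Gch1, Arg1, Slc7a1 and the probe set shared by Nos2 and Nos2-ps1 are higher in every aTX kidney than in any other, while Gchfr, Qdpr and Ddah1 are lower.

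Gucy1a1 and Gucy1b1, subunits of the nitric oxide receptor soluble guanylyl cyclase, had their highest group means in sTX. In the cyclic GMP group of 11 measured genes, aTX had 3 higher and 3 lower than ctr, sTX had 4 higher and 1 lower than ctr, and aTX had 1 higher and 5 lower than sTX. Gucy1a1, the alpha subunit, had signals of 270.4, 230.7, 226.7, 171.2 and 178.9 in aTX, 389.3, 307.5, 414.2, 455.4 and 317.2 in sTX, and 173.9, 192.3, 162.9, 153.5 and 216.1 in ctr on 1368154_at. All sTX kidneys lay above the rest, and aTX overlapped ctr. It was 2.09-fold higher in sTX than in ctr (95% interval 1.73 to 2.52, adjusted p = 8.76e-06) and 1.75-fold lower in aTX than in sTX (adjusted p = 4.64e-05). In aTX against ctr it was not called on this probe set (log2 0.25, adjusted p = 0.137) but was on 1387079_at (log2 0.57, adjusted p = 0.0323). That call was lost after median centring (log2 0.49, adjusted p = 0.0570) and, at about the same size, with fluidics run as a term (log2 0.56, adjusted p = 0.0834), and leaving out aTX 1, 2 or 3 or ctr 2, 3 or 4 also ended it. The beta subunit Gucy1b1 averaged 92.3 ± 32.6 in aTX, 135 ± 14.3 in sTX and 60.2 ± 13.2 in ctr on 1374389_at. It was 2.29-fold higher in sTX than in ctr (adjusted p = 0.000262) and 1.49-fold higher in aTX than in ctr (adjusted p = 0.0257), and the call in aTX was lost after median centring (adjusted p = 0.0527) and without aTX 1, aTX 3 or ctr 3. On 1369097_s_at it was 2.43-fold higher in sTX than in ctr (adjusted p = 3.36e-05) and 1.57-fold higher in aTX than in ctr (adjusted p = 0.00548). With fluidics run as a term the sTX rises over ctr were slightly smaller and were not called for Gucy1b1 on 1374389_at (adjusted p = 0.160) or 1369097_s_at (log2 1.10 in place of 1.28, adjusted p = 0.0692), nor for Gucy1a1 on 1387079_at (log2 1.24 in place of 1.26, adjusted p = 0.0841). Of the aTX rises of Gucy1b1, that on 1374389_at was lost with run as a term (log2 0.50, adjusted p = 0.110) and that on 1369097_s_at within the first run (log2 0.57, adjusted p = 0.0650).

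Gucy1b2, a second beta subunit, was instead lowest in aTX. Its signals were 2.1, 18.5, 19.3, 11.3 and 23.2 in aTX, 37.7, 17.0, 37.0, 44.5 and 42.8 in sTX, and 144.9, 108.0, 172.2, 135.0 and 144.2 in ctr. No graft reached the ctr range. The fall was log2 -3.61 ± 0.46 SE in aTX against ctr (adjusted p = 1.68e-06; -2.99 without aTX 1, adjusted p = 8.53e-09) and -2.04 ± 0.46 in sTX against ctr (adjusted p = 0.00370), and the second was lost with fluidics run as a term (log2 -0.85, adjusted p = 0.661). Vasp, a substrate of the cyclic GMP kinase that binds actin, averaged 877 ± 43.1 in aTX, 358 ± 21.3 in sTX and 236 ± 43.9 in ctr, a 3.76-fold rise in aTX against ctr (adjusted p = 1.72e-12). Irag1, another substrate of that kinase, was 1.76-fold lower in aTX than in sTX (adjusted p = 3.32e-05). Smooth muscle and mesangial markers had their highest summed level in sTX, like Gucy1a1 and Gucy1b1 and unlike Gucy1b2. Of the 10, 7 were higher and 0 lower in sTX than in ctr, while 4 were higher and 4 lower in aTX than in ctr. Their summed level was 1592 to 1901 in aTX, 2158 to 2412 in sTX and 1183 to 1396 in ctr. Their part in the cyclase values was not tested.

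**Figure D4:**
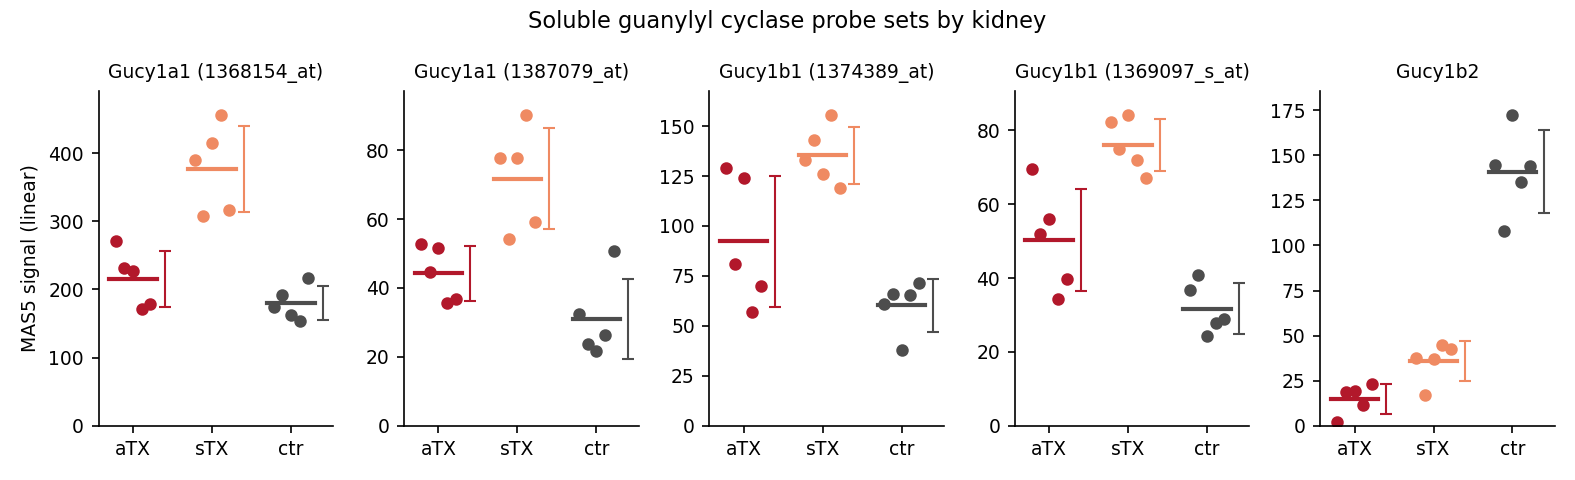
MAS5 signal on linear axes from 0 for the probe sets of soluble guanylyl cyclase. Each point is a kidney, the line is the mean of 5 and the bar 1 SD. On 1368154_at all sTX kidneys (307.5 to 455.4) lie above all aTX and ctr kidneys, while Gucy1b2 is highest in every ctr kidney.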

How the data were processed

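Whole-kidney RNA was hybridized to Affymetrix Rat Genome 230 2.0 arrays, 1 per kidney. The authors deposited MAS5 signal intensity values per probe set on a linear scale (MAS5 version not given in the sources used here). They were already scaled by array, to a mean near 100 once 2% of probe sets at either end is set aside. MAS5 signals near background are noisy, and detection calls were not used here. Of 31099 probe sets, 57 controls were removed, 20826 of the other 31042 carried 1 symbol (14217 genes), 436 several and 9780 none.

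Signals below 0.05 (54 of 0) were set to 0.05 and log2-transformed. All 15 arrays were fitted with limma 3.58.1 in R 4.3.3 (eBayes with intensity trend), and p-values were adjusted by Benjamini-Hochberg over all 31042 probe sets, with 0.05 as threshold. The code was tested on simulated data. Fold changes are ratios of geometric means, and levels are arithmetic means. A control and a graft may come from the same donor, and the number of arrays limits the precision. The methods' t-test at an unadjusted p of 0.001 was an alternative, beside median centring, quantile normalization, an offset of 16, no trend, 2-group fits, a mean signal of at least 50, replicate block, run as a block or alone, and left-out arrays. No pair of different arrays was identical.

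Members and lists were chosen with earlier results of these data known. All member probe sets are named. From each pathway list and comparison up to 3 called genes with the largest log2 change, reaching a mean signal of 50 in either group, are named, plus Nos2, Edn2, Gch1, Ddah1, Gucy1a1 and Gucy1b1. Some results that fall under this rule are not reported here. Promoters are RefSeq's (GRCr8). Python 3.11.15 with matplotlib 3.10.9 drew the plots.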

Additional observations from a re-analysis of the deposited data

Results flagged for a closer look

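None of the 4 member probe sets had a kidney far from the other 4 of its group. Among all 111 groups of 5 signals tested, 10 had such a kidney, where chance gives about 1 in 20. In aTX 1, Gch1 stood high on 1387221_at (222.5, the others 168.0 to 183.0) and on 1368503_at (47.6, the others 28.5 to 33.3), and Mme stood low (324.9, the others 404.1 to 434.3). In aTX 4, Ddah1 (1280.7, the others 814.6 to 844.5), Cav1 on 1372111_at (168.6, the others 128.1 to 134.3) and Edn2 (2.2, the others 0.7 to 1.0) stood high. In sTX 2, Gucy1b2 was low (17.0, the others 37.0 to 44.5). In the controls, Edn2 was high in ctr 1 (3.6, the others 1.0 to 1.2), Ppp1r12a on 1383576_at was high in ctr 4 (125.3, the others 84.2 to 94.0) and Asl on 1367754_s_at was low in ctr 3 (627.7, the others 988.7 to 1028).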

How the results depend on the processing

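The member count in aTX against ctr (2) was 3 with no intensity trend (Nos3 added, lower), 1 after median centring (Nos3, lower), with the methods' t-test after Benjamini-Hochberg, with only the arrays of the 2 groups, with a mean signal of at least 50 (1 measured), with run as a block and within 1 run, and 0 after quantile normalization and with the t-test at an unadjusted p below 0.001. Same-numbered arrays did not deviate together (0 of 15 correlations above 0.1, from -0.02 to 0.03), and with the replicate block the count was 1, as Edn1 lost its call (adjusted p = 0.0703). Leaving out single arrays gave 0 to 2 in aTX against ctr and 0 to 1 in aTX against sTX (main 0, and 1 after median centring). The 17 pathway genes of sTX against ctr became 9 at that p and 5 with run as a block, where 3.12% of all probe sets were called in place of 17.7%. Signs turned for values that were not called. In sTX against ctr these were Edn1 (-0.088 after median centring, -0.099 after quantile normalization), Ece1 (-0.12 after median centring), Nos1 (-0.12, -0.15 and, without sTX 4 and 5, -0.11, with single arrays left out -0.064 to 0.19), Edn2 (-0.021 without sTX 3, 0.70 without ctr 1) and Ddah1 (0.023 with run as a block). In aTX against sTX Nos1 was -0.060 with run as a block and within 1 run, and -0.039 to 0.20 with single arrays left out. In aTX against ctr Nos2 was -0.15 to 0.49 with single arrays left out, below 0 without aTX 3 or ctr 1. The cause was not tested. Over all probe sets the median log2 change was -0.07 (aTX against ctr), 0.09 (sTX against ctr) and -0.18 (aTX against sTX), and -0.15, -0.11 and -0.06 after median centring.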
